A study of Mus musculus with 36 samples.

Results

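The nuclear-encoded subunit genes of the mitochondrial respiratory chain were followed in mouse embryonic fibroblasts (MEFs) in which transcription of the major satellite repeat (MSR) was forced. Members were selected by gene symbol (Nduf genes of the a, b, c, s and v series, Ndufab1, Sdha to Sdhd, the Uqcr genes, Cyc1, the Cox4 to Cox8 series and the Atp5 genes) among protein-coding genes of GENCODE M21, and were chosen by their measured level, a raw mean of at least 100 counts over all 36 libraries. This gave 79 of 54842 genes. By symbol, 37 were assigned to complex I, 4 to complex II, 9 to complex III, 11 to complex IV and 18 to complex V. Ndufa4 was thus counted in complex I and Cox7a2l in complex IV because of their symbols. All 79 were among the 28536 genes that passed the filter on low counts. The members closest to the limit were Atp5s with a raw mean of 199.6 counts, Ndufb2 with 602.6 and Ndufs6 with 636.4, and the genes just under it were Ndufa4l2 with 67.5, Cox7a1 with 30.4 and Cox6a2 with 25.9. The subunit annotated as Atp5o is present under a pair of overlapping gene identifiers, ENSMUSG00000022956 and ENSMUSG00000116933, which share exons and were counted as 2 members.

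The respiratory chain passes electrons from NADH (complex I) and succinate (complex II) through complex III and cytochrome c to oxygen at complex IV, and the proton gradient built on the way drives ATP synthase (complex V). Most subunits are encoded in the nucleus and imported, while a small set of core subunits is encoded by mitochondrial DNA, so that assembly needs both sets. Fibroblasts express the ubiquitous isoforms of subunits such as Cox4, Cox6a and Cox8, for which other isoforms are known from heart, muscle, lung or testis. Several nuclear promoters of this group are classical targets of the transcription factors NRF1, GABP (of the ETS family) and YY1.

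RNA was sequenced from 2 stable MEF lines that carry an inducible dCas9 protein and a guide RNA against MSR on the same PiggyBac plasmid. MSR-dCas9-Control (Control) carries dCas9 without an effector, and MSR-dCas9-Activator (Activator) carries dCas9 fused to the VPR activation domain. Both lines had 6 stages of 3 replicates each: uninduced without doxycycline, induced by 10 ng/ml doxycycline, and washed out for 3, 6, 12 or 24 h. Doxycycline was given for 24 h to Control and for 6 h to Activator cells, so that effector and induction time cannot be told apart between the lines. Each line is a mixed stable culture of one MEF source, and as RNA came from whole cultures, a lower level of an mRNA can reflect fewer cells that express it or less of it per cell. The paper reports no loss of viability in either line directly after induction. By the time of the last stage it reports most Activator cells as apoptotic or dead, while Control cells stayed viable. The effect of cell death on the levels given here was not tested.

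The libraries held 27376846 to 57371803 gene counts (median 42865961), and the 79 members together 174302 to 498567. Levels are given as CPM, counts scaled by library size and TMM factor. Fibroblast markers were present in both lines, with 11 of 14 above a mean of 1 CPM in Control and 12 of 14 in Activator. Their summed level, however, reached down to 11023 CPM in Activator against 22758 CPM in Control. Markers of other cell types stayed low, the highest sums being 33.5 CPM for 3 endothelial genes, 8.85 CPM for 4 immune genes and 7.56 CPM for 2 liver genes, all in Activator, where Control had at most 0.873, 5.37 and 0.127 CPM. The targeted repeat GSAT_MM had group medians of 24.0 to 45.4 CPM in Control, 92.0 CPM in uninduced Activator, 3574 CPM in induced Activator and 10954 to 18734 CPM in Activator after removal. Replicate 2 of Activator stood apart from replicates 1 and 3 after removal, and values without it are given where it matters.

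To show which sequences lie at these genes, the promoters of 5 members are printed, each chosen for a result described later: Cox6a1 rose most, Cox8a was the complex IV gene with the highest level per length, Sdhd and Ndufs7 fell against their complexes, and Atp5g3 was called lower at the last stage alone. The windows run from 250 bases before to 50 bases after the annotated start (RefSeq, GRCm38.p6), 5′ to 3′, and capitals mark matches on either strand to CGCANGCGC for NRF1, CCGGAAGT for ETS factors and AAGATGGCG for YY1.

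Cox6a1, chr5:115348909-115349208, minus strand: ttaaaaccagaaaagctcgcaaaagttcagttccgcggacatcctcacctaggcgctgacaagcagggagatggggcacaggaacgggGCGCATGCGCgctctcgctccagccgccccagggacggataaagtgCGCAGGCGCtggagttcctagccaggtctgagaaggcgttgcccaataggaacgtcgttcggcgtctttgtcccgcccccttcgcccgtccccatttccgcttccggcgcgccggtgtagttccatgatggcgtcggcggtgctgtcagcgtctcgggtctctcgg

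Cox8a, chr19:7217567-7217866, minus strand: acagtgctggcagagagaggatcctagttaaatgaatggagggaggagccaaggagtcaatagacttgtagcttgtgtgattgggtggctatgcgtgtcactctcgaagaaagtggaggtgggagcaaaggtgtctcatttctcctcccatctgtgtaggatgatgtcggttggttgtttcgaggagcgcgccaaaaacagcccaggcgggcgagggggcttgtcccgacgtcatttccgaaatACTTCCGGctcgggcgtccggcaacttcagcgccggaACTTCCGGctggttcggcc

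Sdhd, chr9:50603800-50604099, minus strand: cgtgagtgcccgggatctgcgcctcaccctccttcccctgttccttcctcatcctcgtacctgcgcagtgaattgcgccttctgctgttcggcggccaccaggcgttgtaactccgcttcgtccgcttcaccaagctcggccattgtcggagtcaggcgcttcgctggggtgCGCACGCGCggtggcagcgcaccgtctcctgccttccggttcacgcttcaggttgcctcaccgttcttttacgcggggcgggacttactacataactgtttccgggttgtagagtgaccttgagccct

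Ndufs7, chr10:80249199-80249498, plus strand: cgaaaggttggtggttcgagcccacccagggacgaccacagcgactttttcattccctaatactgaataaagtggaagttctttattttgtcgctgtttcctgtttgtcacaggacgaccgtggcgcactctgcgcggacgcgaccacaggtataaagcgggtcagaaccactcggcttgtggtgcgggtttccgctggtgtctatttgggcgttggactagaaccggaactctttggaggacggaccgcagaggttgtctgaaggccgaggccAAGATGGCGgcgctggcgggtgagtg

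Atp5g3, chr2:73911277-73911576, minus strand: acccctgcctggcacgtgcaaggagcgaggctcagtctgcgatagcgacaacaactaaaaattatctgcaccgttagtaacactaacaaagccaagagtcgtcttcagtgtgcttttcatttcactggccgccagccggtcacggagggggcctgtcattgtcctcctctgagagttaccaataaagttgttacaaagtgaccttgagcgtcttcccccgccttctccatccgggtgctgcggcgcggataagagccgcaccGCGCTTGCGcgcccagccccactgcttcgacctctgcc

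The Cox6a1 window held the NRF1 letters in 3 matches, of which those at -162 and -161 overlap on opposite strands and the other begins at -116. A single match stood at -78 in Sdhd and at 13 in Atp5g3, so that the letters were present both in the member that rose most and in members that fell. Cox8a held 2 matches to the ETS letters, at -6 and 32, and Ndufs7 held the YY1 letters at 25. Promoter windows were matched for 63 of 78 member symbols, with 68 windows in all. The NRF1 letters were present in 24 of these 68 windows (35.3%), against 6.31% of all 32851 windows. The form searched first had a G before these letters and was shortened after its counts had been seen, for which 18 of 68 windows (26.5%) and 4.60% of all windows matched. The YY1 letters were present in 7 windows (10.3%, against 1.40% of all) and the ETS letters in 5 (7.35%, against 3.89% of all). Windows of related groups also held these letters more often than all windows did. In 75 windows of mitochondrial ribosomal protein genes the shares were 24.0% for NRF1, 10.7% for YY1 and 16.0% for ETS, and in 71 windows of cytosolic ribosomal protein genes they were 11.3%, 8.45% and 16.9%, so that the ETS share of the members was below that of both groups. By complex, the NRF1 letters were found in 10 of 35 windows of complex I, 2 of 3 of complex II, 3 of 5 of complex III, 1 of 9 of complex IV and 8 of 16 of complex V. These are matches of letters, and binding was not measured.

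Before induction no respiratory chain gene passed the test between the lines, and after induction most of them were higher in Activator. On the TMM scale, but not relative to the mitochondrially encoded mRNAs, genes of all 5 complexes were higher up to 6 h after removal, by a median of 0.55 (log2). By 24 h the median difference on the TMM scale was -0.03, with 14 subunit genes higher and 19 lower than in Control. Over all tested genes 34.5% were higher and 29.4% lower. With DESeq2 size factors the 24 h median was 0.13, with 26 higher and 11 lower. With plain library size it was 0.051, with 27 higher and 18 lower. Relative to the median of all genes these 24 h medians were -0.029 and -0.039. The library values show the course. Relative to the mean of uninduced Control, the median log2 ratio over the 79 members lay between -0.14 and 0.11 in the 18 Control libraries. In Activator replicates 1, 2 and 3 it was -0.01, -0.06 and -0.23 before induction, 0.42, 0.31 and 0.32 after it, and 0.63, 0.36 and 0.56 at 3 h. It then was 0.73, 0.23 and 0.56 (6 h), 0.71, 0.09 and 0.46 (12 h), and 0.24, -0.34 and 0.03 (24 h). All 3 Activator libraries were above every Control library of the same stage from the induced stage to 12 h, with replicate 2 the lowest of the 3 in each of these stages.

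**Figure D1:**
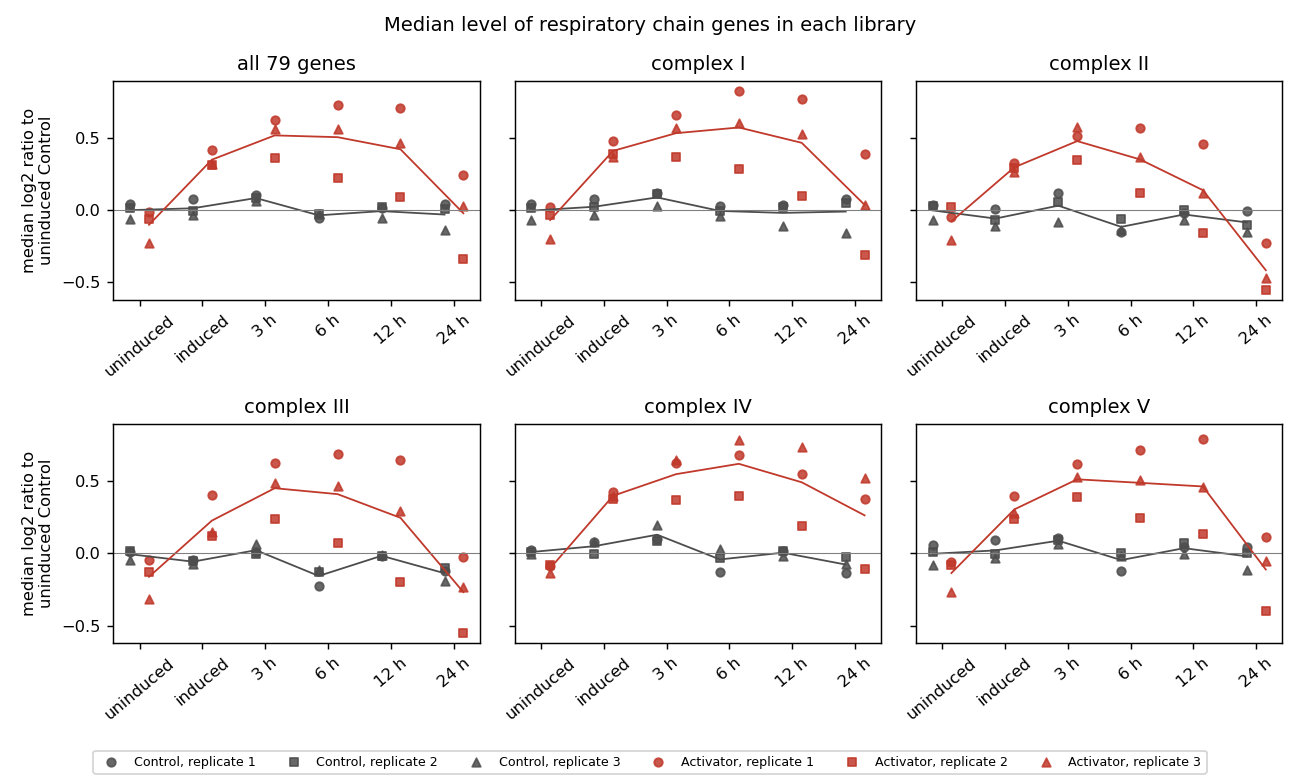
Median log2 ratio of the respiratory chain genes in each library (y axis, relative to the mean of the uninduced Control libraries) by stage (x axis), for all 79 genes and for each complex. Points are libraries, symbols mark replicates and lines join the means of 3 replicates. On this scale (TMM) the Activator libraries lie above the Control libraries of the same stage from the induced stage to 12 h. At 24 h the Activator libraries spread from -0.34 to 0.24. Under scaling to the mitochondrially encoded mRNAs the median difference between the lines was -0.025 after induction. It was -0.19, -0.17 and -0.19 at 3 h, 6 h and 12 h under that scaling.

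The difference between the lines was tested at each stage with edgeR's quasi-likelihood test over all genes, with Benjamini-Hochberg adjustment, and a gene was called at an adjusted p under 0.05. Before induction 0 of 79 members were called in either direction by edgeR, where 0.883% of all tested genes were called higher and 0.343% lower, and 7 members had an unadjusted p under 0.05. DESeq2 also called 0 in either direction. After induction 47 members were higher and 0 lower (all genes 31.7% higher and 25.5% lower). The 3 h stage had 62 higher and 0 lower members (all genes 39.6% and 31.4%), and the 6 h stage 71 higher and 1 lower (40.8% and 33.3%). Later, 55 were higher and 5 lower at the 12 h stage (41.1% and 34.1%), and 14 were higher and 19 lower at the 24 h stage (34.5% and 29.4%). The members' median log2 fold change was -0.09, 0.34, 0.41, 0.55, 0.45 and -0.03 over the 6 stages, where that of all tested genes was 0.03, 0.10, 0.16, 0.13, 0.12 and 0.01. Among the 11337 protein-coding genes with a mean of at least 100 counts, which are closer in level to the members, the median was -0.07 after induction and -0.18, -0.30 and -0.31 at the 6, 12 and 24 h stages. Without Activator replicate 2 of the 24 h stage, 28 members were higher and 14 lower at 24 h.

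The members were also counted by whether the 3 libraries of each line overlapped. Before induction all Activator libraries lay above all Control libraries for 2 members and below them for 11 (all genes 8.58% and 7.93%). From the induced to the 24 h stage, all Activator libraries lay above all Control libraries for 55, 56, 58, 41 and 3 members, and below them for 0, 0, 0, 4 and 17 members. Over all tested genes such separation was found above in 31.8%, 39.8%, 38.1%, 39.9% and 32.7% and below in 26.1%, 31.6%, 30.9%, 33.7% and 28.8% at the same stages. At 24 h, 3 members were separated above Control where 14 were called higher.

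These levels are relative to the other genes of a library, and the direction depended on what they were scaled to. When libraries were scaled to the summed counts of the 13 mitochondrially encoded mRNAs, the median of all tested genes moved by -0.61 at 12 h, and 3 members were higher and 31 lower in Activator at 12 h. The member median was -0.17 at 6 h and -0.19 at 12 h under that scaling, where that of all tested genes was -0.58 and -0.49. The share of all genes called under that scaling is not given. Relative to the median of all genes the member median was higher by 0.30 at 12 h under that scaling, by 0.33 with DESeq2 size factors and by 0.32 with plain library size. As a share of all gene counts, the 79 members took 0.685% ± 0.0222 (SD, n = 3) in Control and 0.872% ± 0.146 (n = 3) in Activator at 12 h, and the 13 mitochondrially encoded mRNAs took 1.68% ± 0.202 and 2.43% ± 0.467 in the same libraries. The ratio of both sums was 0.411 ± 0.0389 in Control and 0.360 ± 0.0244 in Activator at 12 h, and it ran from 0.316 to 0.411 over the means of all 12 groups.

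**Figure D2:**
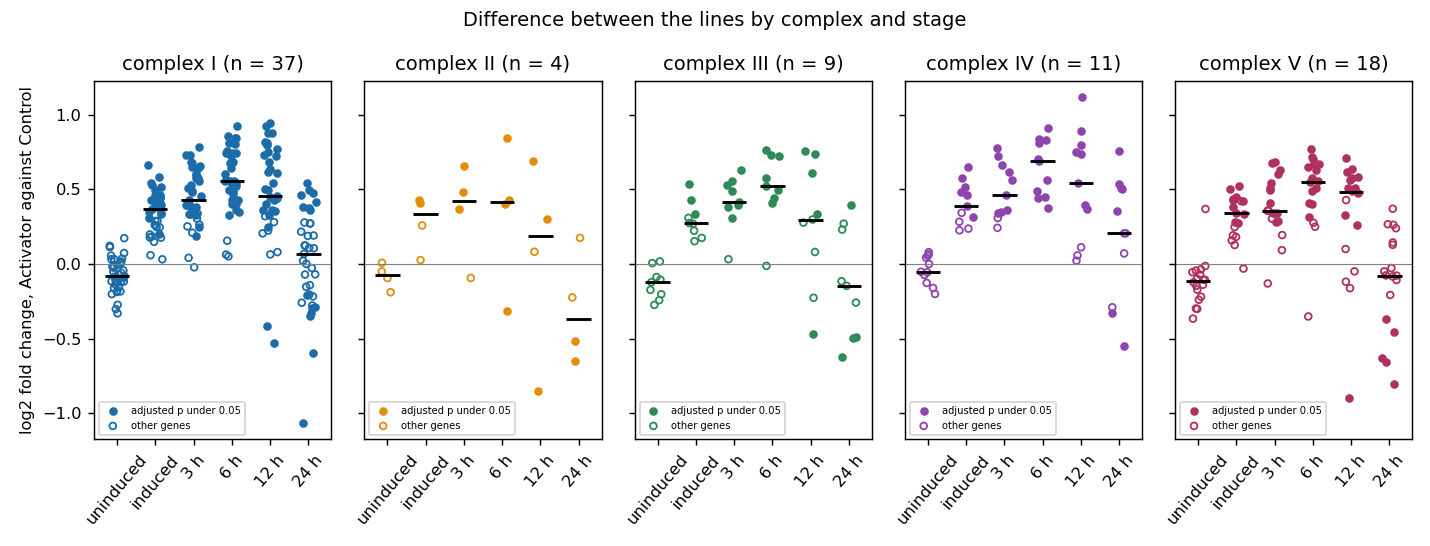
Log2 fold change of Activator against Control (y axis) for each respiratory chain gene by stage (x axis) and complex. Filled points passed an adjusted p of 0.05, open points did not, and black bars are medians. On the TMM scale the complex IV median was 0.69 at 6 h and 0.20 at 24 h, where the complex II median was 0.41 and -0.37. Under scaling to the mitochondrially encoded mRNAs the median of all members was -0.17 at 6 h.

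Whether a difference arose after induction was tested gene by gene as the difference at a stage less the uninduced difference. By this test 33 members were higher and 0 lower after induction (all genes 14.5% and 17.7%), and 56 were higher and 0 lower at the 3 h stage (21.4% and 25.7%). The 6 h stage had 69 higher and 1 lower (22.4% and 27.7%), the 12 h stage 55 and 3 (23.0% and 28.0%), and the 24 h stage 7 and 6 (14.4% and 18.7%). The 3 genes with a lower difference at 12 h were Sdhd, Uqcrfs1 and Atp5s. Without replicate 3 in all groups, 0 members had a higher difference after induction and 9 at 12 h, and without replicate 2 the counts were 69 and 69.

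Within Activator, 68 members rose and 1 fell from uninduced to induced (all genes 32.9% and 28.0%), with a median of 0.46. From uninduced to 12 h 64 rose and 3 fell (40.2% and 34.9%), with a median of 0.57. From 12 h to 24 h 63 members fell and 0 rose (all genes 19.5% lower and 17.5% higher), with a median of -0.47. The number that fell depended on the scaling. It was 28 with plain library size and 5 with scaling to the mitochondrially encoded mRNAs, where the shares of all genes are not given. The part of cell death in this fall was not tested. Within Control, edgeR called 0 members in each of the same 3 comparisons, where 0.0526% of all genes rose and 0.161% fell on induction, 0.161% rose and 0.890% fell from uninduced to 12 h, and 0.340% rose and 0.0876% fell from 12 h to 24 h. Unadjusted p-values under 0.05 were found for 2, 1 and 2 members in these Control comparisons. The additive model of replicate, stage and line over the whole course called 57 members higher and 4 lower in Activator (all genes 44.5% and 37.5%).

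By complex, all 11 complex IV genes were higher at 6 h, as were 34 of 37 genes of complex I, 8 of 9 of complex III, 15 of 18 of complex V and 3 of 4 of complex II. At 12 h the numbers higher and lower were 29 and 2 for complex I, 2 and 1 for complex II, 4 and 1 for complex III, 8 and 0 for complex IV and 12 and 1 for complex V. The shares of all tested genes were 40.8% higher and 33.3% lower at 6 h, and 41.1% and 34.1% at 12 h. In complexes II and III the share higher at 12 h (2 of 4 and 4 of 9) was close to that of all genes. By 24 h complexes II and V had no gene called higher, with 2 and 5 lower, while complex IV had 5 higher and 2 lower, complex I 8 and 7, and complex III 1 and 3. Over all tested genes 34.5% were higher and 29.4% lower at 24 h, and complexes I, II, III and V had a smaller share higher than that. The difference between complexes was not tested. These counts are on the TMM scale with all libraries, and counts by complex without Activator replicate 2 are not given. At 24 h Atp5b of complex V, which was not called, was at 1197, 1150 and 1260 normalised CPM in Control. In Activator it was at 1701, 1013 and 1582, with replicate 2 alone below Control.

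Few changes were large. With the limits of the study, a change over 2-fold and a mean over 100 counts beside the adjusted p, 1 member was called at 12 h (all genes 15.2% in either direction) and 1 at 24 h (7.46%). The gene at 12 h was Cox6a1, and the gene at 24 h was Ndufs7.

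Complex I is the entry point for electrons from NADH. At 12 h its accessory subunit gene Ndufa7 was at 53.3, 50.5 and 56.4 normalised CPM in Control and at 119, 77.8 and 109 in Activator. This was a log2 fold change of 0.92 ± 0.12 (SE, adjusted p = 7.71e-08, edgeR), and the difference was still 0.54 at 24 h. Ndufa12, the complex I gene with the highest mean level per length (85.1 CPM per kilobase of exon), had a log2 fold change of 0.68 at 12 h and 0.19 at 24 h, where it did not pass the test.

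Ndufs7, which encodes an iron-sulphur subunit of complex I, went the other way. At 12 h it was at 54.6, 52.9 and 48.4 normalised CPM in Control and at 45.4, 28.7 and 33.8 in Activator, a log2 fold change of -0.53 ± 0.12 (SE, adjusted p = 2.08e-04, edgeR). At 24 h it was at 50.9, 45.5 and 44.1 in Control and at 20.4, 25.7 and 20.9 in Activator, with a log2 fold change of -1.07 ± 0.12 (SE, adjusted p = 1.38e-08, edgeR). Up to 6 h its fold changes lay between -0.16 and 0.06. The accessory subunit gene Ndufb3 was at 17.4, 17.9 and 14.5 normalised CPM in Control and at 16.8, 8.03 and 13.5 in Activator at 12 h. Its log2 fold change of -0.41 (adjusted p = 0.0294, edgeR) rested on replicate 2, without which (in all groups) it was 0.0089. At 24 h, where the groups did not overlap, it was -0.60. The core genes Ndufs1, Ndufs3 and Ndufs8 were higher at 6 h by 0.43, 0.40 and 0.43 and lower at 24 h by -0.29, -0.29 and -0.33, as were Ndufb7 (0.34 and -0.35), and all of these passed the test at both stages. Ndufb2 was called at 24 h with -0.21.

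Complex II, succinate dehydrogenase, is encoded by 4 nuclear genes only, and these parted. Sdhb, the iron-sulphur subunit, was at 46.6, 46.4 and 48.1 normalised CPM in Control and at 89.2, 61.3 and 78.4 in Activator at 12 h, a log2 fold change of 0.69 ± 0.11 (SE, adjusted p = 3.59e-06, edgeR). The flavoprotein gene Sdha had a log2 fold change of 0.30 (adjusted p = 0.0209, edgeR). It was at 87.6, 89.2 and 84.7 normalised CPM in Control and at 135, 84.7 and 106 in Activator, so that the groups overlapped. Sdhd, a membrane anchor and the complex II gene with the highest mean level per length (53.6 CPM per kilobase), was at 79.7, 78.7 and 73.7 normalised CPM in Control and at 52.4, 33.7 and 43.8 in Activator. Its fold change was -0.31 (6 h), -0.85 ± 0.10 (12 h, SE, adjusted p = 6.77e-09, edgeR) and -0.65 (24 h), with no overlap at the later 2 of these stages. Sdhd was the single member called lower at 6 h, and DESeq2 did not call it there. The other anchor gene, Sdhc, was 0.08 at 12 h (adjusted p = 0.471) and -0.52 at 24 h (adjusted p = 7.65e-05, edgeR), where it was at 67.8, 63.3 and 64.2 normalised CPM in Control and at 47.6, 44.6 and 44.4 in Activator.

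**Figure D3:**
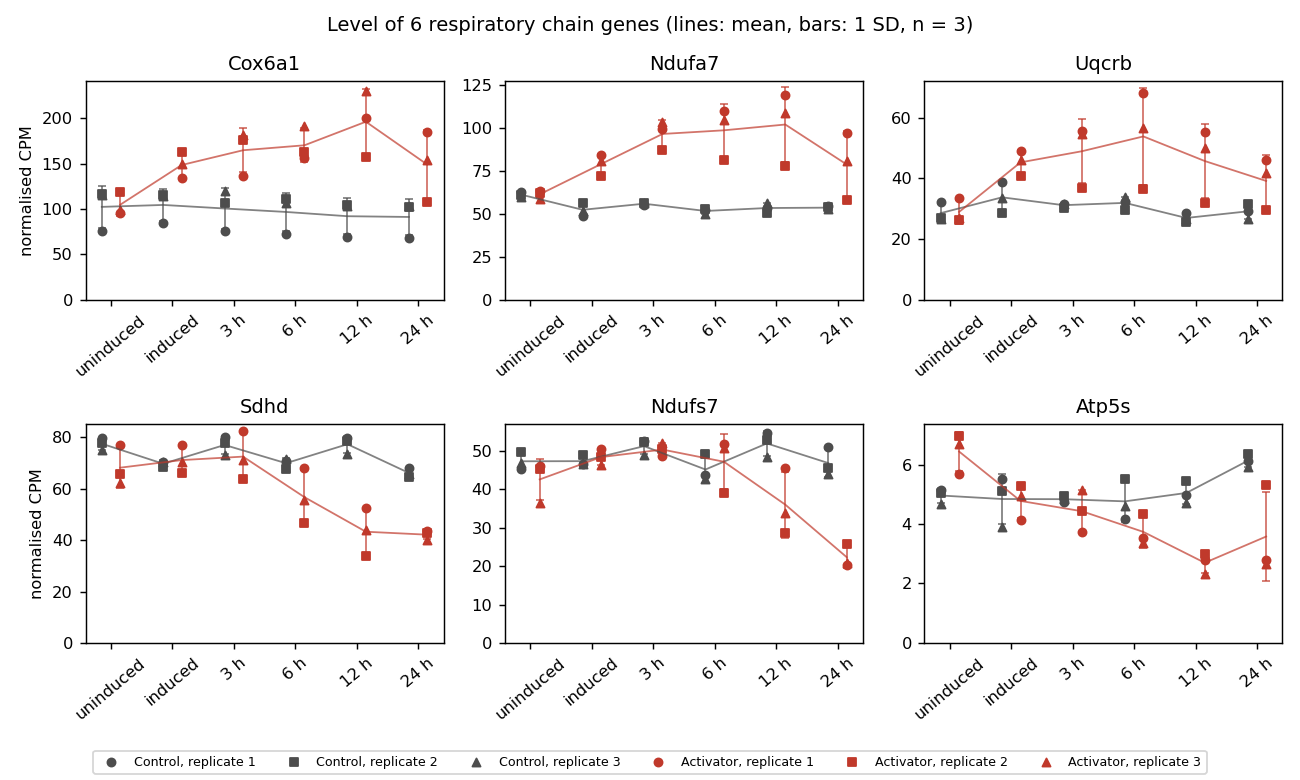
Level of 6 respiratory chain genes in normalised CPM (y axis, from 0) by stage (x axis). Points are libraries, symbols mark replicates, lines join means and bars are 1 SD (n = 3). Cox6a1, Ndufa7 and Uqcrb are higher in Activator at 12 h, while Sdhd, Ndufs7 and Atp5s are lower there in every Activator library.

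In complex III, which passes electrons from ubiquinol to cytochrome c, the small subunit genes Uqcrq and Uqcrb had the highest fold changes at 12 h. Uqcrq was at 56.1, 61.0 and 58.6 normalised CPM in Control and at 122, 74.8 and 101 in Activator (log2 fold change 0.76 ± 0.14 SE, adjusted p = 2.64e-05, edgeR). Uqcrb was at 28.6, 25.8 and 26.5 and at 55.2, 31.8 and 50.1, with a log2 fold change of 0.73, and it was the single complex III gene called higher at 24 h (0.40). Uqcrfs1, the Rieske iron-sulphur protein, was at 31.2, 31.1 and 43.6 normalised CPM in Control and at 26.1, 22.6 and 26.9 in Activator. The groups did not overlap, and replicate 3 was the highest Control library, as it was at all 6 stages. The log2 fold change was -0.47 ± 0.11 (SE, adjusted p = 5.83e-04, edgeR) at 12 h and -0.50 at 24 h. Uqcrh, the hinge protein, was higher by 0.41 at 6 h and lower by -0.62 at 24 h, and the core protein gene Uqcrc1 was higher by 0.44 and lower by -0.49, all past the test. Uqcr11, with the highest mean level per length of the complex (106 CPM per kilobase), was higher by 0.58 at 6 h and did not pass the test at 12 h (0.28) or 24 h (-0.26).

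Complex IV, cytochrome c oxidase, had the highest median difference of the 5 complexes at 12 h (0.55) and at 24 h (0.20). Cox6a1, the ubiquitous form of subunit VIa, was at 69.1, 104 and 103 normalised CPM in Control and at 201, 158 and 230 in Activator at 12 h. Control replicate 1 was the lowest library for this gene in all 6 Control stages, and the groups did not overlap at 12 h. The log2 fold change was 1.12 ± 0.18 (SE, adjusted p = 2.83e-06, edgeR) at 12 h and 0.76 at 24 h. Cox5b was at 48.4, 67.3 and 93.6 normalised CPM in Control and at 103, 111 and 166 in Activator, with a log2 fold change of 0.89 ± 0.14 (SE, adjusted p = 3.37e-06, edgeR). Cox8a had the highest mean level per length of the complex (244 CPM per kilobase) and was higher by 0.75 at 12 h and 0.50 at 24 h. Its replicates differed within both groups, with 78.8, 137 and 162 normalised CPM in Control and 172, 179 and 258 in Activator at 12 h. Cox4i1 (0.80 and 0.53) and Cox5a (0.74 and 0.35) were also higher at both stages. The groups overlapped at both stages for Cox5a and at 24 h for Cox4i1 and Cox8a. Cox6b1, Cox7a2 and Cox7b did not pass the test at 12 h, with 0.02, 0.06 and 0.11, and at 24 h Cox7b (-0.55) and Cox6b1 (-0.33) were lower.

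The other isoforms of respiratory chain subunits, which are below the limit of 100 counts and are no members, had few counts. At 12 h Cox6a2, the form known from heart and skeletal muscle, had 8, 8 and 4 counts in Control and 34, 38 and 20 in Activator (log2 fold change 2.34 ± 0.40 SE, adjusted p = 5.89e-06, edgeR). Its Control counts at 12 h were below those before induction and at 24 h, with 18, 9 and 17 before induction and 39, 37 and 24 at 24 h. Activator had 22, 23 and 17 before induction and 34, 40 and 46 at 24 h, so that the ratio of pooled CPM was 1.45 and 1.18 at these stages, against 5.18 at 12 h. Cox6b2, known from testis, had 3, 4 and 0 counts in Control and 27, 16 and 12 in Activator (3.06 ± 0.62 SE, adjusted p = 7.35e-05, edgeR). Cox8c had 0 counts in all 3 Control libraries and 12, 10 and 16 in Activator, at least 14.25-fold higher against a floor of 3 counts over the Control group. Cox8b rose by 1.37 and Ndufa4l2 by 1.13, while Cox4i2 and Cox7a1 did not pass the test at 12 h. All of these remained below 3 normalised CPM at 12 h.

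In complex V, the ATP synthase, the catalytic subunit gene Atp5b had the highest mean level per length of all members (342 CPM per kilobase). At 12 h it was at 1271, 1266 and 1366 normalised CPM in Control and at 2230, 1475 and 2090 in Activator. The log2 fold change was 0.56 ± 0.13 (SE, adjusted p = 3.54e-04, edgeR), and at 24 h it was 0.24 and did not pass the test. Atp5f1, of the peripheral stalk, was at 183, 185 and 177 normalised CPM in Control and at 378, 219 and 317 in Activator, with a log2 fold change of 0.71. Atp5e had 0.64. Atp5g3, 1 of 3 genes for the c-ring subunit, was at 176, 194 and 184 and at 224, 121 and 155 at 12 h, where the groups overlapped (-0.16, adjusted p = 0.340, edgeR), and was lower at 24 h by -0.65. Of the other c-ring genes, Atp5g1 was lower at 24 h by -0.37 and Atp5g2 was not called there (-0.11), although Atp5g2 was higher by 0.58 at 12 h. Atp5s, also called coupling factor B and the member with the lowest mean level per length (2.30 CPM per kilobase), was at 4.98, 5.45 and 4.72 normalised CPM in Control and at 2.78, 2.98 and 2.34 in Activator at 12 h (-0.90 ± 0.17 SE, adjusted p = 2.79e-05, edgeR). Before induction it had the highest difference of all members (0.37), which did not pass the test.

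**Figure D4:**
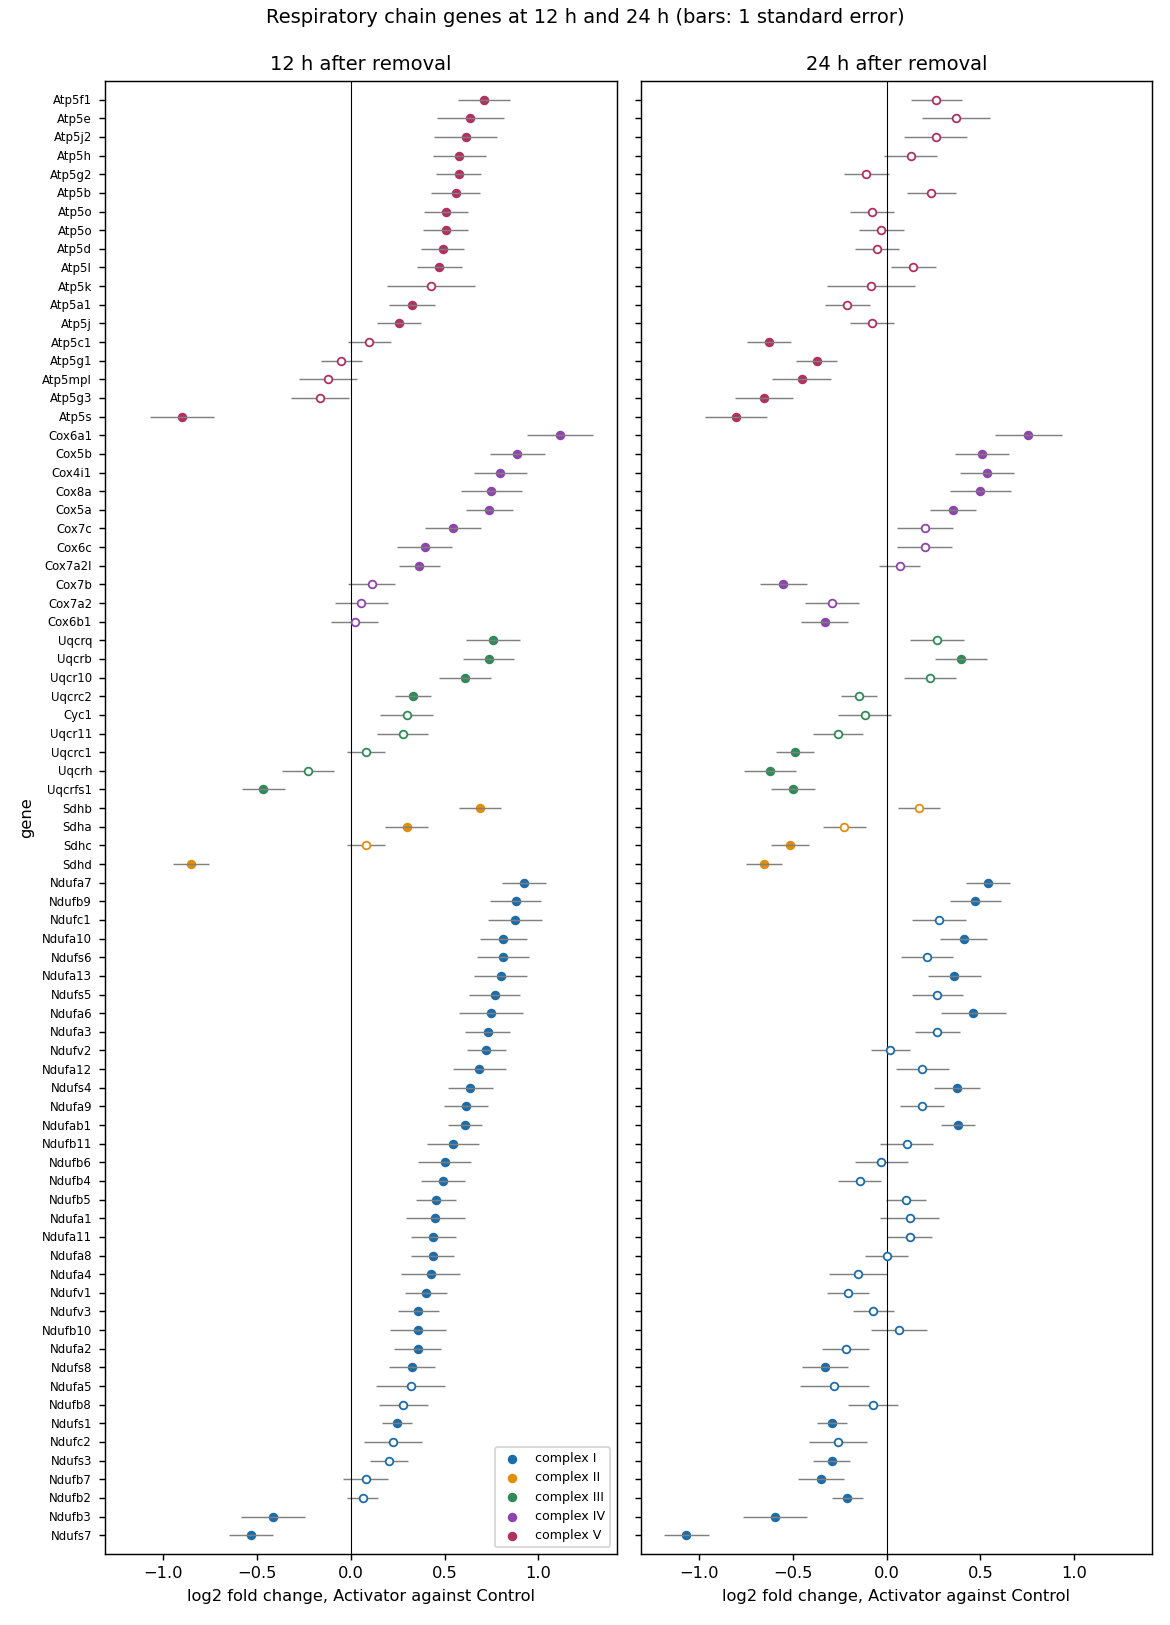
Log2 fold change of Activator against Control (x axis) for 78 of the 79 respiratory chain genes (y axis) at 12 h and 24 h after doxycycline removal, grouped by complex. Bars are 1 standard error, and filled points passed an adjusted p of 0.05. On the TMM scale (scaling to the mitochondrially encoded mRNAs turned many of these) 70 of all 79 genes are above 0 and 9 below at 12 h, and at 24 h 39 are above and 40 below.

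Most of the 13 mRNAs encoded by mitochondrial DNA were higher in Activator at 6 h and 12 h, as were most of the nuclear members. The 6 h stage had 10 higher and 0 lower (median 0.74, all genes 40.8% and 33.3%). The 12 h stage had 8 and 0 (median 0.58, all genes 41.1% and 34.1%), and the 24 h stage 4 and 1 (all genes 34.5% and 29.4%). The largest change at 12 h was that of mt-Nd4l (1.16 ± 0.23 SE). The mean of mt-Nd1 was 3037 normalised CPM in Control and 2888 in Activator at 12 h, and 3408 and 2242 at 24 h. Of 4 electron carrier genes 3 were higher at 12 h, with Etfa, a subunit of the electron transfer flavoprotein, at 0.89. Of 46 genes for nuclear factors that assemble the complexes 9 were higher and 26 lower at 12 h (median -0.34, all genes 41.1% higher and 34.1% lower), and 3 were higher and 27 lower at 24 h (all genes 34.5% and 29.4%). The difference from the subunit genes was not tested. Sdhaf1, which acts in the maturation of Sdhb, had -1.94 ± 0.26 (SE), and Cox18, a membrane insertase for complex IV, had 0.77 ± 0.09 (SE), both past the test. Coenzyme Q synthesis genes had 1 higher and 6 lower of 11, with Pdss2 at -1.15 and Coq6 at 0.90.

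Of 14 regulators of respiratory genes 3 were higher and 10 lower at 12 h (all genes 41.1% and 34.1%). The coactivator gene Ppargc1a was at 1.07, 0.918 and 0.731 normalised CPM in Control and at 21.6, 21.9 and 21.7 in Activator at 12 h, a log2 fold change of 4.59 ± 0.32 (SE, adjusted p = 7.42e-13, edgeR). Part of this difference was present before induction, where Ppargc1a was at 0.699, 0.613 and 0.546 in Control and at 2.09, 4.97 and 3.52 in Activator. Its family members Ppargc1b (-2.43) and Pprc1 (-2.18) were lower. Nrf1, whose motif is described above, was at 63.1, 61.3 and 59.0 normalised CPM in Control and at 35.2, 41.9 and 35.9 in Activator, a log2 fold change of -0.70 ± 0.10 (SE, adjusted p = 4.84e-07, edgeR). Yy1 (-0.66), Esrra (-1.52), Tfam (-0.54) and the mitochondrial RNA polymerase gene Polrmt (-1.47) were also lower. The ETS factor gene Gabpa did not pass the test (0.01), and its partner Gabpb1 was higher by 0.46.

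Among gene groups outside the chain, 63 of 80 cytosolic ribosomal protein genes were higher and 0 lower at 12 h (median 0.50, all genes 41.1% and 34.1%). Of 78 mitochondrial ribosomal protein genes 31 were higher and 23 lower, with Mrpl41 at -2.04 and Mrpl2 at 1.24. Tricarboxylic acid cycle genes had 2 higher and 3 lower of 13 at the 12 h stage and 0 and 9 at the 24 h stage (all genes 34.5% and 29.4%). Glycolysis genes had 3 higher and 4 lower of 17 at 12 h, with Hk2 at -1.53 and Aldoc at 2.39. At 12 h the shares of both groups were below those of all genes in both directions.

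**Figure D5:**
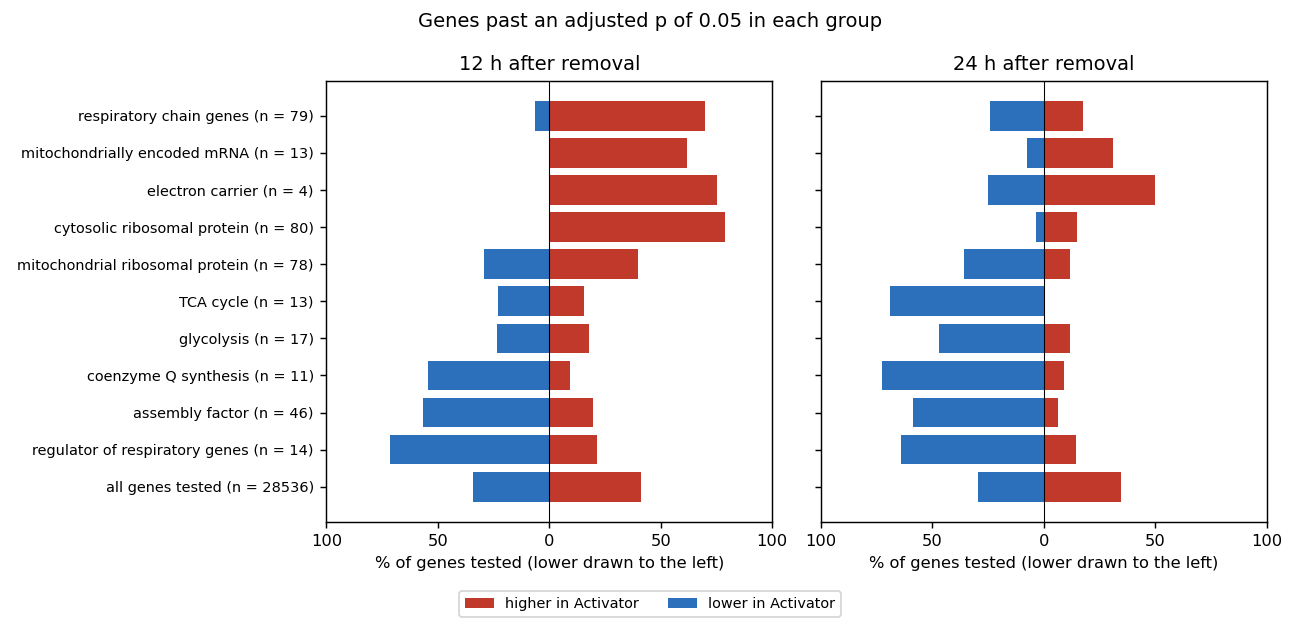
Percentage of genes past an adjusted p of 0.05 (x axis) that were higher (right) or lower (left) in Activator, for the respiratory chain genes, 9 related gene groups and all genes tested (y axis), at 12 h and 24 h. On the TMM scale (3 of 79 when scaled to the mitochondrially encoded mRNAs), 55 of 79 respiratory chain genes at 12 h extend to the right, as do 63 of 80 cytosolic ribosomal protein genes, while 26 of 46 assembly factor genes extend to the left.

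The selection did not use gene structure. The members' median span was 7674 bases with 1718 exonic bases and 5 exon blocks, against 24971 bases, 4616 exonic bases and 10 exon blocks for all protein-coding genes with a mean of at least 100 counts. Mitochondrial ribosomal protein genes were close to the members, with a median span of 7899.5 bases and 5 exon blocks, and cytosolic ribosomal protein genes were shorter, with a median span of 3328.5 bases. By complex the median span ran from 4762 bases in complex III to 20715 bases for the 4 complex II genes. Near-identical copies (at least 95% identity over at least 150 bases of transcript) were found for 24 of 79 members, and 55 had none. In 4 members the copies' counts exceeded 10% of the member's own, which were Cox7a2l (50.9%), Ndufs5 (29.3%), Atp5l (12.4%) and Ndufa12 (10.5%), and how reads shared with copies were counted is not given in the sources used here. In addition, 6 members share exonic bases with another gene on the same strand and 25 on the opposite strand.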

How the data were processed

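Total RNA, depleted of ribosomal RNA, was sequenced from 36 libraries. The authors mapped paired reads with STAR to the GRCm38 build and used TEtranscripts to count both genes and repeat families. The deposited values are raw counts, whole numbers in every library. Annotation release, strand setting and sharing of multi-mapped reads are not given in the sources used here. Of 54842 gene rows 54495 matched GENCODE M21, and 1 unnamed row (0.0021 to 0.0045% of gene counts) and 1561 repeat families were left out of library sizes.

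Counts were fitted in R 4.3.3 with edgeR 4.0.16 (filterByExpr, TMM on genes, robust glmQLFit, glmQLFTest), with 12 groups and the replicate number as block, as in the study's design formula. P-values were adjusted by Benjamini-Hochberg over 28536 genes. Standard errors were taken as the absolute fold change (log2) over the root of the F statistic. Normalised CPM uses TMM factors, and levels per length use the exonic bases of a gene. Copies were searched with blastn 2.17.0. DESeq2 1.42.0, other scalings, filters and left-out libraries were alternatives. The procedure was also run on simulated counts whose spread was taken from the Control libraries alone. That run does not cover the wider spread between Activator replicates after removal, and nothing is concluded from it here. Replicates are independent experiments per the study, and the labels give numbers alone.

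Members and lists were chosen with earlier results of these data known. Genes were named by rule: per complex the highest level per length and the 2 highest and 2 lowest fold changes at 12 h, members past the study's limits or called against their complex, those beside the limit of 100, tissue isoforms, 7 regulators and the extremes of each list. The values of 1 gene that the rule names are not reported here. Cox5a, Cox8c, Uqcrc1, Pprc1, Polrmt and Gabpb1 were chosen after their values were seen.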

Additional observations from a re-analysis of the deposited data

Results flagged for a closer look

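The change of the respiratory chain genes from the uninduced stage differed between the lines by the test of the difference itself (edgeR quasi-likelihood test, Benjamini-Hochberg over all genes). The change was higher in Activator for 33, 56, 69, 55 and 7 members from the induced to the 24 h stage (all genes 14.5%, 21.4%, 22.4%, 23.0% and 14.4%). It was lower in Activator for 1, 3 and 6 members at the last 3 stages (all genes 27.7%, 28.0% and 18.7%). At 24 h the members' shares in both directions were below those of all genes. Groups of 3 libraries are too small for a check of single outlying values.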

How the results depend on the processing

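Counts are members higher or lower in Activator unless stated. At 24 h the member median was above 0 with DESeq2 size factors (0.13) and plain library size (0.051), unlike in the main fit. The direction of the member median was kept from the induced stage to 12 h under all alternatives run except scaling to the 13 mitochondrially encoded mRNAs. Under that scaling the member medians after induction and at 3, 6 and 12 h were -0.025, -0.19, -0.17 and -0.19. The medians of all tested genes were -0.25, -0.44, -0.58 and -0.49 at the same stages, and the share of all genes called is not given. The numbers higher at these stages and at 24 h were 0, 0, 0, 3 and 5, and those lower 1, 25, 25, 31 and 33. The numbers with a higher difference than before induction were 0 at all 5 stages, and those with a lower difference 3, 8, 16 and 14 from the 3 h stage on. Within Activator 0 rose on induction, 10 rose to 12 h and 5 fell from 12 h to 24 h, and the additive model gave 6 higher and 42 lower. At 12 h it turned Sdha (-0.33), Sdhc (-0.55), Uqcr11 (-0.37), Cox7a2 (-0.58), Cox6b1 (-0.62), Atp5b (-0.073), Cox7b (-0.53), Ndufb2 (-0.55), Ndufb7 (-0.56), Ndufs1 (-0.37), Ndufs3 (-0.42) and Ndufs8 (-0.32) below 0. The cause was not tested.

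With DESeq2, 0 members were lower at 6 h, 26 were higher and 11 lower at 24 h, and 14 and 2 had a higher or lower difference than before induction at 24 h. DESeq2 size factors in edgeR gave 0 lower at 6 h, 26 and 11 at 24 h, 2 with a lower difference at 24 h, and 1 lower in the additive model. Both turned Atp5g3 at 12 h to 0.047. Plain library size gave 1 lower at 3 h, 2 lower at 6 h, 27 higher at 24 h, 1 and 2 with a lower difference at 3 h and 6 h, and 28 that fell from 12 h to 24 h in Activator. It turned Sdhc (-0.026), Cox7a2 (-0.054), Cox6b1 (-0.090), Cox7b (-0.00030), Ndufb2 (-0.035) and Ndufb7 (-0.031) at 12 h. With genes of a mean of at least 100 counts, 0 and 3 were lower at the 6 h and 12 h stages, 34 were higher and 10 lower at the 24 h stage, and 18 and 2 had a higher or lower difference at 24 h. Uqcrh (0.037) and Atp5g3 (0.10) at 12 h and Ndufb2 (0.015) at 24 h turned. The 6 libraries of one stage alone, with the replicate block, gave 0 and 2 lower at the 6 h and 12 h stages, and 8 higher and 5 lower at the 24 h stage. Members with a raw mean of at least 1000 had 3 lower at 12 h, and members without a near-identical copy 41 higher at 3 h. Under the study's limits 0, 0, 0, 1 and 0 were higher from the induced to the 24 h stage, and 0, 0 and 1 lower from the 6 h stage on.

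The replicate number was the block, as in the study's design. The 18 same-numbered pairs had correlations of deviations from -0.0067 to 0.222, with 10 over 0.1, and 16 of 18 Activator libraries correlated best with their own number. Without the block 25 members were higher after induction and 9 at 24 h, and 14, 32 and 3 had a higher difference after induction, at 3 h and at 24 h.

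Leaving out a replicate number or a library moved the number higher over 14 to 75, 30 to 76, 44 to 76, 32 to 69 and 3 to 44 from the induced to the 24 h stage. The number lower ran from 0 to 1 before induction, and over 0 to 1, 3 to 7 and 10 to 20 from the 6 h stage on. Those with a higher difference ran from 0 to 69, 6 to 76, 19 to 75, 9 to 69 and 0 to 47 over the 5 stages, and those with a lower one from 0 to 1 at 6 h and 1 to 4 at 24 h. Within Activator 19 to 76 rose on induction and 11 to 65 fell from 12 h to 24 h. The uninduced median ran from -0.17 to 0.0025. At 12 h Ndufb3 ran from -0.61 to 0.0089, Sdhc from -0.077 to 0.32, Uqcrh from -0.45 to 0.11, Cox7a2 from -0.16 to 0.41, Cox6b1 from -0.15 to 0.34, Atp5g3 from -0.45 to 0.15, Cox7b from -0.057 to 0.40 and Ndufb7 from -0.087 to 0.34. Single libraries that moved a count by over 1.5 times were Control replicate 1 of the induced stage (30 higher without it) and, at 24 h, Activator replicate 2 (28 higher without it), replicate 1 (11 lower) and replicate 3 (10 lower). The single gene lower at 6 h, Sdhd, was not called without Control replicate 3 or Activator replicate 2. With 3 replicates a group, the spread between them limits the precision.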
